A study of Rattus norvegicus with 16 samples.

Results

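Expression of the estrogen receptors and of genes that work with them was examined in the hippocampus of 16 adult male Sprague-Dawley rats. The set holds 10 genes, and a gene was taken as measured where a non-control probe of the array carries exactly its symbol. This gave 9 probes of 30367 in all, 1 for each of Esr1, Esr2, Pgr, Esrra, Esrrb, Esrrg, Ncoa1, Ncor1 and Hsd17b4. No probe bears the symbol Cyp19a1, the gene of aromatase, the enzyme that makes estradiol from testosterone. A probe described on the array as rat aromatase cytochrome P450 mRNA, but named only by its sequence record, is given beside the 9.

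The Naïve group (3 arrays) had neither injury nor treatment. The Sham group (2 arrays) was anesthetized and prepared for injury but not injured, and the TBI group (3 arrays) received a fluid percussion brain injury. The groups TBI+PMI (3 arrays), TBI+JM6 (3 arrays) and TBI+E33 (2 arrays) were injured and then given a drug, JM6 and PMI being experimental compounds given by oral gavage and E33 being estradiol, given subcutaneously according to the labels and intraperitoneally according to the methods. All tissue was taken at 24 h, with 1 rat per array, and there was no injured group given vehicle among the arrays analysed here. With 3 rats in each group by the methods, the remaining Sham and TBI+E33 rats were not analysed here.

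Estradiol acts through 2 nuclear receptors, ERα (Esr1) and ERβ (Esr2), which bind DNA once they hold the hormone and recruit coactivators such as Ncoa1, while corepressors such as Ncor1 keep target genes silent. The progesterone receptor Pgr is a classical target gene of ERα. The estrogen-related receptors Esrra, Esrrb and Esrrg resemble ERα in sequence but bind no estrogen, and Esrra is best known as a regulator of mitochondrial genes. Hsd17b4, a peroxisomal enzyme, oxidizes estradiol to estrone and also breaks down fatty acids. In the hippocampus, estradiol is known to act on dendritic spines and on the survival of neurons after injury.

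The arrays were scanned in 2 sessions, one with the Naïve, Sham and TBI arrays and one with all arrays of drug-treated rats. The 8 arrays of drug-treated rats had 20256 to 24979 probes well above background, and the 8 others 16274 to 18239, so that drug and scanning session cannot be told apart when a drug group is set against TBI. Each slide held 4 arrays: Naïve 1 and 2 with both Sham arrays, Naïve 3 with the 3 TBI arrays, the 3 TBI+PMI arrays with TBI+JM6 1, and TBI+JM6 2 and 3 with both TBI+E33 arrays. Levels are log2 values relative to the 75th percentile of the detected probes on the same array, so that 0 is that percentile. The CA field markers Fibcd1, Wfs1, Bok and Neurod6 were above background on 16 of 16 arrays, as was the dentate granule cell marker C1ql2. Of the other dentate granule cell markers, Dsp was above background on 14 of 16 arrays, Prox1 on 8 and Tdo2 on none. The summed scaled level of 5 choroid plexus markers was 76.6 on Naïve 2, 121 on Sham 1 and 150 on TBI+PMI 1, and 0.192 to 7.60 on the other arrays. Its part in the results below was not tested. The labels number the replicates without saying how each RNA was amplified, and a p-value measures the spread between these samples only.

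What was measured for the receptors rests on a single 60-base probe each, and 3 of these sequences are shown: those of Esr1 and Esr2, the receptors that bind estradiol, and that of Esrrb, which like Esr1 was above background on no array. Positions are those of the array design on rn4, and the letters are given 5′ to 3′ as printed on the array, with a stop codon at the end of the Esr2 probe in capitals.
Esr1: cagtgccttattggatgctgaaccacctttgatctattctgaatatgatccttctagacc
Esr2: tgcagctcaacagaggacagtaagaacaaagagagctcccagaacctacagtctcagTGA
Esrrb: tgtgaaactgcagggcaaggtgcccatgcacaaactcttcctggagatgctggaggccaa
The Esr1 probe lies at chr1:35660062-35660121 on the plus strand, has 41.7% G and C, and was printed in 10 spots per array. The Esr2 probe lies at chr6:98691846-98691905 on the minus strand, with 48.3% G and C and 1 spot per array. The Esrrb probe lies at chr6:110635092-110635151 on the plus strand, with 55% G and C and 1 spot. Of the 3 reading frames, 1 is free of stop codons in the Esr1 probe, and 2 are free of internal stop codons in each of the other two. Whether a probe lies in an exon or a UTR could not be determined, as no rn4 annotation was used here, and the other 6 probes lie on chromosomes 1, 6, 8, 10, 13 and 18.

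The genes fell into 2 sets by signal. Esrra, Ncoa1 and Ncor1 were well above background on 16 of 16 arrays and Hsd17b4 on 15 of the 15 where its spot could be used, the Naïve 2 spot having been flagged as an outlier by the scanner software. Esr1 and Esrrb were above background on 0 of 16 arrays, Esrrg on 1, Pgr on 4 and Esr2 on 7. The probe described as aromatase was above background on 0 of 16 arrays, at intensities of 4.10 to 19.4. No spot of these probes was saturated. Every array on which Esr2, Pgr or Esrrg was above background came from a drug-treated rat, that is, from the session in which more probes were detected.

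**Figure D1:**
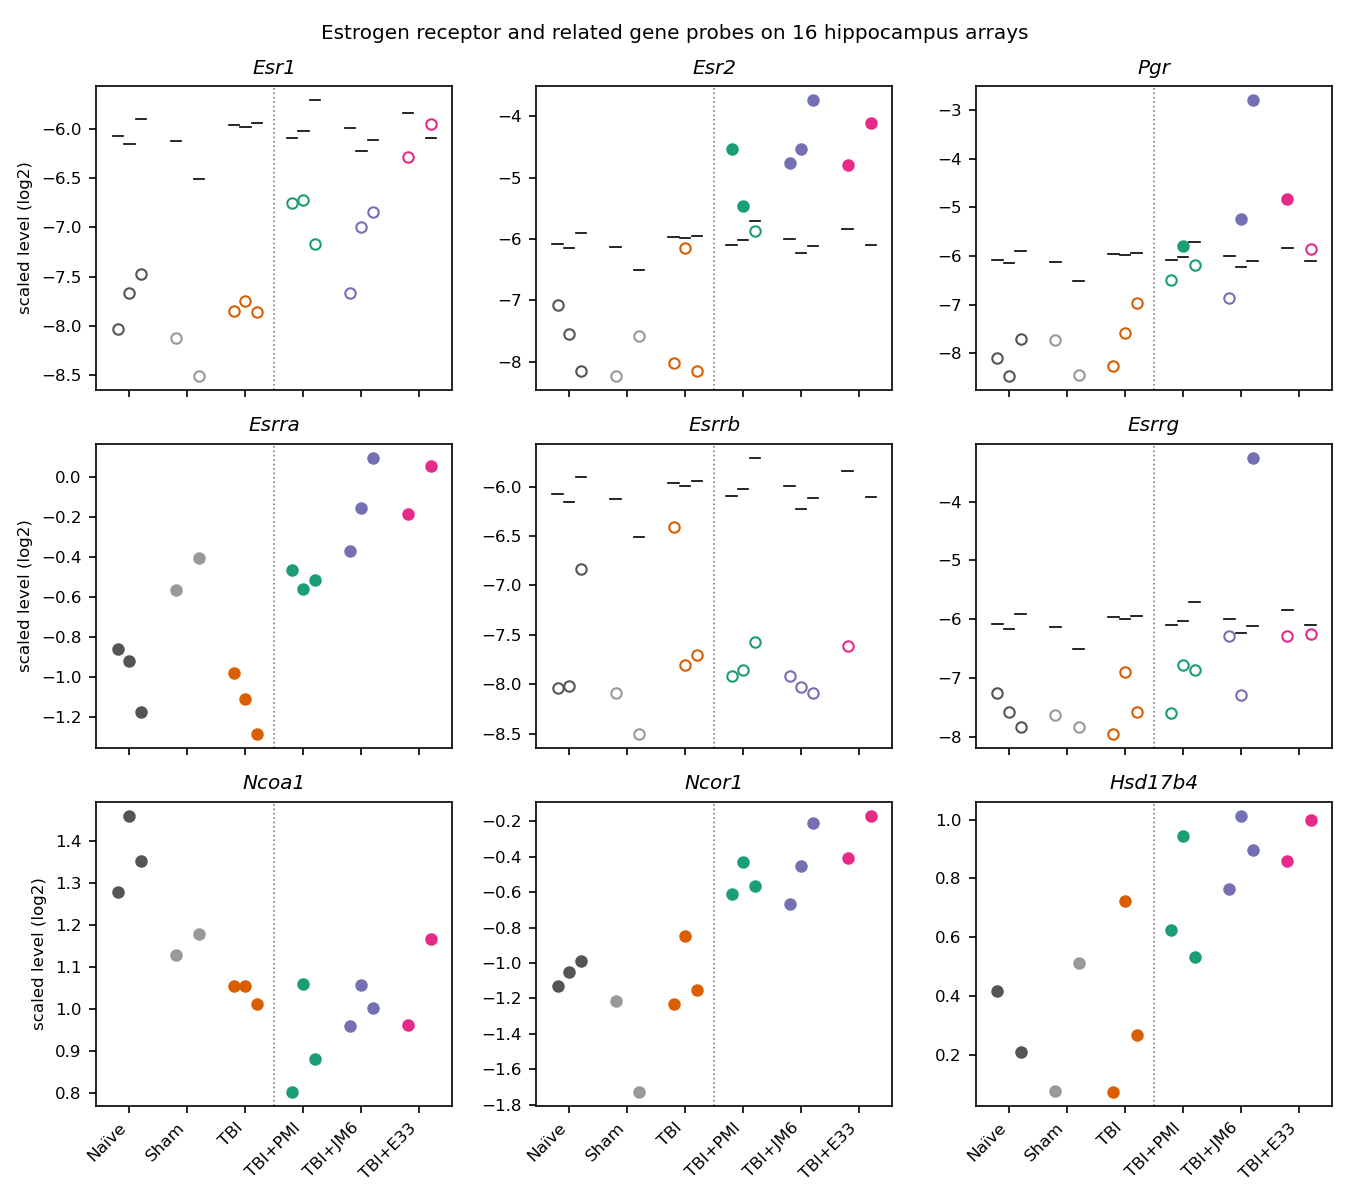
Scaled level (log2) of the 9 probes in each rat by group, with filled points for arrays on which the probe was well above background and open points for arrays on which it was not. Black ticks in the panels of the dim probes mark the lowest level of any probe called well above background on that array, and the dotted line parts the 2 scanning sessions. Esrra, Ncoa1, Ncor1 and Hsd17b4 were filled wherever measured, Esr2 was filled on 7 arrays of drug-treated rats, and Pgr and Esrrg were highest on TBI+JM6 3.

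Esr1 signal was not above background in any rat, as averaged over the spots of its probe. The mean intensity of the Esr1 spots was 5.78, 6.47 and 7.94 on the Naïve arrays, 5.83 and 3.95 on the Sham arrays, and 6.15, 6.07 and 7.01 on the TBI arrays. It was 15.7, 15.7 and 14.3 with PMI, 8.19, 14.6 and 11.98 with JM6, and 20.2 and 20.1 with E33. Both E33 arrays were thus the highest of the 16, yet only 2 of 10 usable spots on E33 1 and 2 of 9 on E33 2 were above background. On PMI 1 and PMI 2 it was 1 of 10 spots each, and on every other array none. Within an array the spots had an SD of 0.22 to 1.40 on the log2 scale, the largest on E33 2. The means on the scaled log2 scale were -6.12 ± 0.24 (SD, n = 2) with E33, -6.89 ± 0.25 (n = 3) with PMI and -7.17 ± 0.44 (n = 3) with JM6. No test was made and no fold change is given, since the probe was below background in every group.

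**Figure D2:**
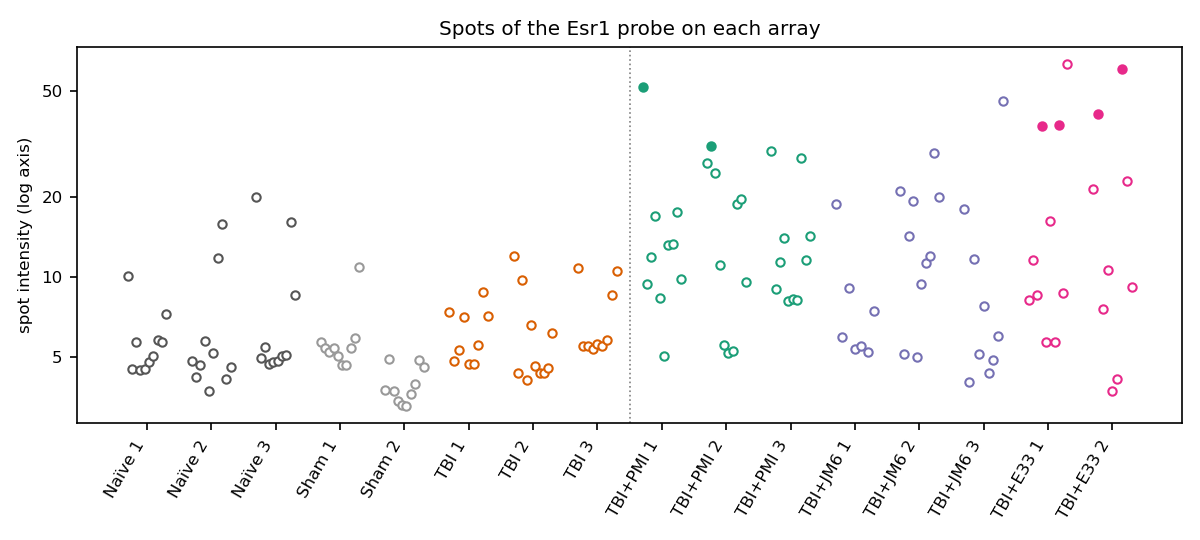
Intensity of each usable spot of the Esr1 probe (log axis) on the 16 arrays, with filled points for spots well above background. The E33 arrays have 2 filled spots each and PMI 1 and PMI 2 have 1 each, while all spots of the Naïve, Sham, TBI and JM6 arrays are open.

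Esr2 was detected only on arrays of drug-treated rats, which were also the arrays of 1 scanning session. Esr2 intensity was 11.1, 6.98 and 4.97 on the Naïve arrays, 5.38 and 7.46 on the Sham arrays, and 5.48, 18.4 and 5.71 on the TBI arrays, none of them above background. It was 73.4, 37.9 and 35.1 with PMI, 61.4, 80.6 and 104 with JM6, and 56.96 and 72.7 with E33, and of these 8 only PMI 3 (35.1) was not above background. The 2 sets of arrays did not overlap. Of all tested probes, 85.1% did not overlap between E33 and TBI, 73.2% between JM6 and TBI and 62.6% between PMI and TBI. The pattern of detection was also common on these arrays: of 9276 probes above background on none of the Naïve, Sham and TBI arrays, 1629 (17.6%) were above background on at least 7 of the 8 arrays of drug-treated rats. Of 3587 probes above background on none of the latter, 0 were above it on at least 7 of the 8 former. Set against the lowest level of any probe above background on each TBI array, Esr2 was 2.87-fold higher with E33, 3.09-fold with JM6 and 1.60-fold with PMI. These are not lower limits, as that level is no detection limit. On TBI 2 it was -5.99, while Ppargc1a at -5.81 was not above background there. Esr2 passed the filter on dim signals only through the drug groups, where it was high, so that its calls against TBI are no support for a difference and no p is given. A normexp background correction was run with an offset of 50 added to each intensity, which makes log2 differences of dim probes smaller. Under it the median of all probes against TBI was 0.49 with E33, 0.82 with JM6 and 0.24 with PMI. The fitted differences of Esr2 from TBI were then 0.65 with E33, 1.23 with JM6 and 0.047 with PMI on the log2 scale, beside 2.99, 3.099 and 2.15 on the background-subtracted signal. With quantile normalization they were 1.18, 1.63 and 0.84, and none of these 6 was called. Drug and session cannot be told apart here.

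Among the drugs, Esr2 did not separate E33 from the others. Its scaled log2 level was -4.45 ± 0.49 (SD, n = 2) with E33, -4.34 ± 0.54 (n = 3) with JM6 and -5.29 ± 0.69 (n = 3) with PMI, and the 3 groups overlapped. The higher E33 value lay within the range of the JM6 values, and the lower one was just under it and within the range of the PMI values.

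Pgr, the target gene of ERα, was above background on 4 arrays. Its intensity was 3.71 to 13.0 on the Naïve, Sham and TBI arrays. It was 18.9, 30.0 and 28.3 with PMI, 14.3, 49.4 and 199 with JM6, and 55.3 and 21.6 with E33. Only PMI 2, JM6 2, JM6 3 and E33 1 were above background, so that no group had a measured signal in every rat, and Pgr was not tested. JM6 3 lay 2.04 on the log2 scale above the next array, E33 1.

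The estrogen-related receptors differed in signal: Esrra was high throughout, while Esrrb and Esrrg were near or below background. Esrrb had intensities of 3.96 to 16.8, with the spot of E33 2 flagged and left out. Esrrg had 5.77 to 21.5 on 15 arrays and 144 on JM6 3, the same array on which Pgr was highest and the only one on which Esrrg was above background. On JM6 3, 103 probes were at least 2 log2 units above every other array of drug-treated rats, and on the other 7 arrays of that session 34 to 112 probes were. The summed level of 6 interneuron markers was 22.9 on JM6 3 and 7.89 to 17.4 on the other 15 arrays. Its part in the Pgr and Esrrg signals was not tested.

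The comparison of E33 with the other drugs, within the session of the drug arrays, asks whether the estrogen genes differ between estradiol and the other 2 compounds. Of the 5 probes that passed the filter on dim signals (Esr2, Esrra, Ncoa1, Ncor1 and Hsd17b4), limma called 0 between TBI+E33 and TBI+JM6, where 0.0175% of all 22818 probes tested were called. It called 0 of 5 between TBI+E33 and TBI+PMI, where 0.110% of all probes were called, and 0 of 5 between TBI+JM6 and TBI+PMI, where 0.0131% were. At an unadjusted p under 0.05, 641 and 3417 probes of all passed in the first 2 comparisons, among them 0 and 1 of the 5, the 1 being Esrra. In the last comparison 2019 probes did, Esrra again being the 1 of the 5. The methods' t-test with Benjamini-Hochberg adjustment called 0, 1 and 0 of all probes, none of them a member. The 4 members that did not pass the filter (Esr1, Pgr, Esrrb and Esrrg) were not tested.

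Esrra was the member with an unadjusted p under 0.05 against PMI. Its scaled log2 level was -0.46, -0.56 and -0.51 with PMI, -0.37, -0.16 and 0.095 with JM6, and -0.19 and 0.055 with E33. All PMI values were below all JM6 and E33 values, while JM6 and E33 overlapped. Of all tested probes 41.0% did not overlap between E33 and PMI, and 14.8% between JM6 and PMI. E33 exceeded PMI by 0.45 (SE 0.18, 95% interval 0.056 to 0.84, limma adjusted p = 0.270), and JM6 by 0.079 (SE 0.18, -0.31 to 0.47). The median of all probes in the first of these comparisons was 0.26, and 68.7% of probes had a smaller difference than Esrra. The 10 spots of Esrra had an SD of 0.058 to 0.16 on the log2 scale within an array. The PMI and E33 arrays shared no slide, and with the slide as a fixed block the difference was 0.11. The adjusted p ran from 0.110 to 0.9998 over the alternatives. The summed level of 5 astrocyte markers was 28.0 to 40.8 with PMI and 45.7 to 47.7 with E33, and that of 3 dentate granule cell markers was 0.537 to 1.25 and 1.28 to 2.24. The dentate sum was mostly C1ql2, at -1.43 to 1.17 on the log2 scale over the 16 arrays. Prox1 and Dsp reached at most -3.30 and -4.06. Sums of oligodendrocyte (99.8 to 103 and 107 to 132), endothelial (2.78 to 4.02 and 4.12 to 4.17) and thalamus markers (0.311 to 0.585 and 0.645 to 0.664) did not overlap either. Those of the other marker lists overlapped. The part of these sums in the Esrra values was not tested, and in such bulk tissue fewer cells of a type and less RNA per cell cannot be told apart.

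The coactivator Ncoa1 spanned 0.80 to 1.46 over the 16 arrays. Its level with E33 was 0.96 and 1.17, with JM6 0.96, 1.06 and 1.002, and with PMI 0.80, 1.06 and 0.88. The difference of E33 was 0.058 from JM6 (95% interval -0.25 to 0.37) and 0.15 from PMI (-0.16 to 0.46). The corepressor Ncor1 had -0.41 and -0.17 with E33, -0.67, -0.45 and -0.21 with JM6, and -0.61, -0.43 and -0.57 with PMI. E33 differed from JM6 by 0.16 (-0.28 to 0.59) and from PMI by 0.25 (-0.18 to 0.68), and both E33 values lay above all PMI values. Hsd17b4 had 0.86 and 0.998 with E33, 0.76, 1.01 and 0.90 with JM6, and 0.62, 0.94 and 0.53 with PMI, with differences of 0.037 (-0.45 to 0.53) and 0.23 (-0.26 to 0.72). For Esr2 the differences were -0.11 (-1.38 to 1.17) and 0.84 (-0.43 to 2.12). The intervals of Esr2 were the widest of the 5.

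**Figure D3:**
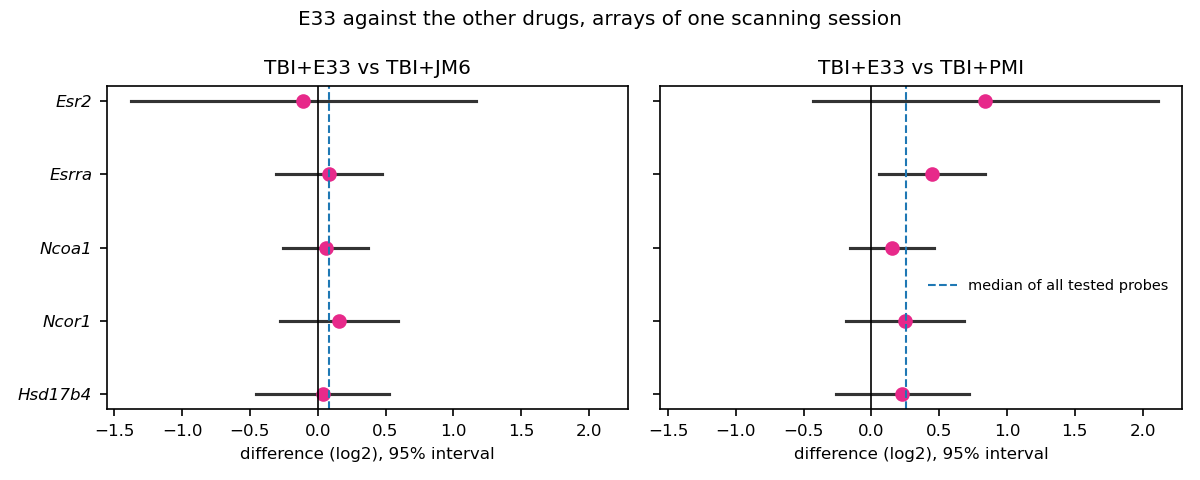
Difference in scaled log2 level between TBI+E33 and TBI+JM6 (left) or TBI+PMI (right) for the 5 tested probes, with 95% intervals from the limma fit and a dashed line at the median of all tested probes. Only the interval of Esrra against PMI (0.056 to 0.84) leaves out 0, and it holds the median of 0.26.

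Of the 5 tested members 1 differed between TBI and Sham rats. Esrra fell by 0.64 on the log2 scale in TBI vs. Sham (SE 0.18, 95% interval -1.03 to -0.25, limma adjusted p = 0.0437), 1 of 5 probes where 9.38% of all probes tested were called. Its levels were -0.98, -1.11 and -1.28 in TBI, -0.56 and -0.41 in Sham, and -0.86, -0.92 and -1.18 in Naïve rats. The Sham rats were thus the high group, above every Naïve and TBI value, where 39.7% of all probes did not overlap between Sham and Naïve and 41.9% between TBI and Sham. TBI differed from Naïve by -0.14 (-0.49 to 0.21, adjusted p = 0.694). Sham exceeded Naïve by 0.50 (0.11 to 0.89, adjusted p = 0.112), without passing the test. The adjusted p ran from 0.0157 to 0.856 over the alternatives. The call was lost without Sham 1 (0.118), Sham 2 (0.210), TBI 2 (0.104) or TBI 3 (0.142), and with the slide as a fixed block the difference was -0.35 (adjusted p = 0.856). The Sham arrays lay on a slide without TBI arrays. The summed level of 6 neuron markers was 45.5 to 47.4 in Sham, 22.9 to 39.1 in TBI and 22.8 to 30.1 in Naïve rats, and that of 4 CA field markers 12.1 to 12.6, 5.70 to 10.3 and 6.90 to 7.31. Among these 8 rats the sums were highest in the same 2 as Esrra, and their part in its level was not tested.

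**Figure D4:**
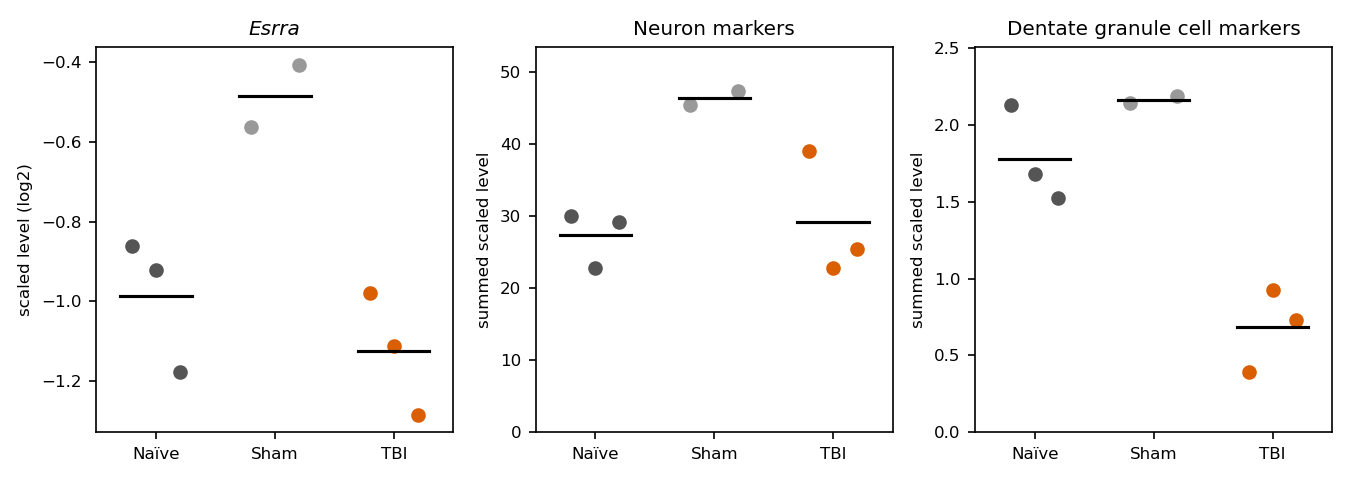
Scaled log2 level of Esrra (left) and summed scaled levels of 6 neuron markers (middle) and 3 dentate granule cell markers (right) in each Naïve, Sham and TBI rat, with a bar at the group mean. Esrra and the summed neuron markers were highest in the 2 Sham rats. The dentate sum, which is mostly C1ql2, was lowest in the 3 TBI rats.

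None of the 5 was called in TBI vs. Naïve (4.71% of all probes) or in Sham vs. Naïve (8.07%). At an unadjusted limma p under 0.05 1 of 5 passed in each, Ncoa1 in the first and Esrra in the second. Of all probes, 4762 of 22803 passed in the first and 5186 of 22778 in the second. Ncoa1 was 1.28, 1.46 and 1.35 in Naïve, 1.13 and 1.18 in Sham, and 1.06, 1.05 and 1.01 in TBI rats. The 3 groups did not overlap, as TBI and Naïve did not for 23.3% of all probes, and the difference of TBI from Naïve was -0.32 (SE 0.13, -0.60 to -0.044, adjusted p = 0.172). It was -0.11 from Sham (-0.43 to 0.20). Ncor1 was -1.13, -1.05 and -0.99 in Naïve, -1.21 and -1.73 in Sham, and -1.23, -0.85 and -1.15 in TBI rats. It differed by 0.39 (-0.039 to 0.83) between TBI and Sham and by -0.41 (-0.85 to 0.019) between Sham and Naïve, and Sham 2 was the lowest of all 16 arrays. Hsd17b4 was 0.42 and 0.21 in Naïve, 0.079 and 0.51 in Sham, and 0.075, 0.72 and 0.27 in TBI rats, with all 3 groups overlapping.

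Set against TBI, most members were higher in drug-treated rats, as were most probes on the arrays. Between TBI+E33 and TBI, 4 of 5 probes were called, all higher, where 70.3% of all probes were called. It was 4 of 5 for TBI+JM6 (70.1%) and 3 of 5 for TBI+PMI (56.7%). One call in each is Esr2, which the filter let in through the drug groups, and without it the counts are 3, 3 and 2 of 4. These 3 comparisons share the TBI arrays. The median difference of all probes was 1.08, 0.99 and 0.79 in the order E33, JM6 and PMI, and with quantile normalization -0.0033, -0.0024 and -0.015. Of all probes, 16026 were called higher and 21 lower with E33, beside 2375 and 2278 with quantile normalization. Esrra was 1.06, 0.98 and 0.61 above TBI, which is -0.017, -0.015 and -0.18 from the medians. Ncor1 and Hsd17b4 were 0.79 and 0.57 above TBI with E33, both below the median, and under the scaling to the 75th percentile of all probes Ncor1 was -0.041, and Hsd17b4 was -0.26, as it was -0.072 with quantile normalization. The Hsd17b4 call was lost on leaving out 4 of the 5 arrays in turn, that is TBI 1, TBI 3, E33 1 or E33 2 (adjusted p = 0.119, 0.0907, 0.0826 and 0.174), and the Ncor1 call without E33 2 (0.0501). With quantile normalization Esrra was 0.29 with E33 and 0.24 with JM6, neither called (adjusted p = 0.170 and 0.191), and -0.0017 with PMI.

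Ncoa1 did not share the shift of most probes. It differed from TBI by 0.024 (95% interval -0.29 to 0.34) with E33, -0.034 (-0.31 to 0.24) with JM6 and -0.13 (-0.41 to 0.15) with PMI. These values are 1.05, 1.03 and 0.92 below the median of all probes, and only 3.13%, 3.48% and 2.69% of probes had a smaller difference. Where the scaling brings the median near 0, Ncoa1 was lower with each drug, the differences being -0.59, -0.64 and -0.58 with quantile normalization (adjusted p = 0.0137, 0.00448 and 0.00964). The position of Ncoa1 against TBI thus depended on the scaling, and session and drug cannot be told apart.

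**Figure D5:**
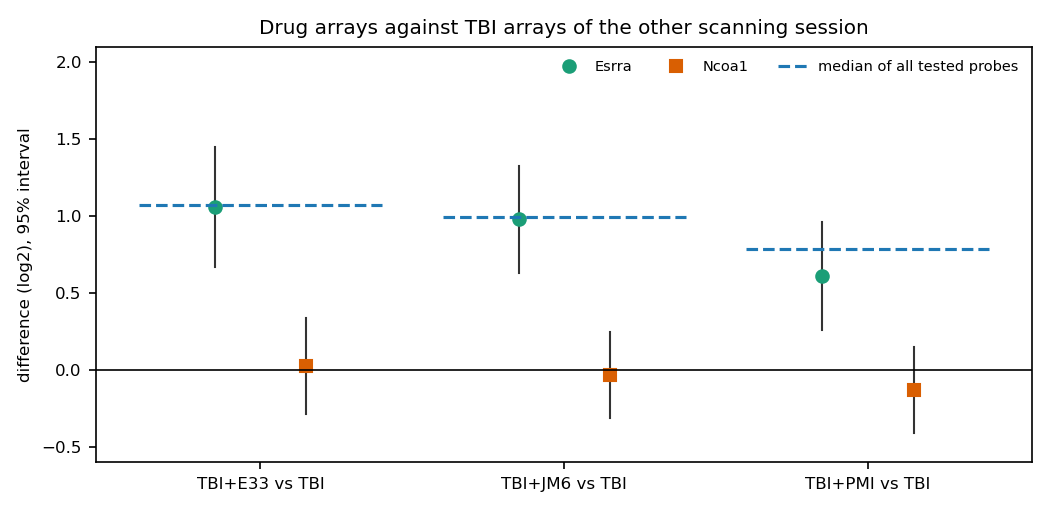
Difference in scaled log2 level between each drug group and TBI for Esrra and Ncoa1, with 95% intervals from the limma fit and a dashed line at the median of all tested probes. Esrra lies at or just under the median with each drug and Ncoa1 lies about 1 log2 unit under it.

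Around these genes, 84 others of steroid synthesis and receptor action were followed in 5 lists, of which 82 had a probe and 69 passed the filter. Between TBI+E33 and TBI+JM6 0 of 69 were called, with a median difference of 0.067 beside 0.082 over all probes, and between TBI+E33 and TBI+PMI 0 of 69, with 0.21 beside 0.26. The estrogen receptor target genes gave medians of -0.054 and 0.17 over 14 genes, and the target genes of the estrogen-related receptors 0.043 and 0.14 over 10 genes. Between TBI+E33 and TBI 42 of 69 (60.9%) were called, all higher, beside 70.3% of all probes. Some of the 42 passed the filter only through the drug groups, as Esr2 did. Pdzk1, Ltf and Star, for example, were above background on 0 TBI arrays and 2 E33 arrays. Such calls are no support for a difference, and a count without them was not made.

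After injury the list genes that moved were few. In TBI vs. Sham 5 of 69 (7.25%) were called beside 9.38% of all probes, and in TBI vs. Naïve 6 of 69 (8.70%) beside 4.71%. Tspo, which marks activated microglia and brings cholesterol into the mitochondrion for steroid synthesis, was 1.19, 2.55 and 2.09 in TBI rats, -0.84 and 0.36 in Sham and -1.65, -0.47 and -1.31 in Naïve rats. It rose by 2.19 (SE 0.44, limma adjusted p = 0.0136) over Sham and by 3.09 (SE 0.39, adjusted p = 0.00272) over Naïve, and was the 1 of 14 steroid metabolism genes called in either comparison. Without Sham 1 or TBI 3 the first call was lost (adjusted p = 0.109 and 0.0536), and the second was kept without any 1 array. The summed level of 6 microglia and macrophage markers was 6.84 to 9.19 in TBI, 5.27 to 8.26 in Sham and 4.88 to 5.32 in Naïve rats. Among 8 other steroid receptors, the membrane progestin receptors Paqr7 and Paqr8 fell by 1.16 each in TBI vs. Sham (adjusted p = 0.0254 and 0.0406). With the normexp background correction Paqr7 was -0.19 (limma adjusted p = 0.850) and Paqr8 was 0.022, beside a median of 0.27 over all probes. Its offset of 50 makes differences of such dim probes smaller. Neither was called with quantile normalization or on the authors' matrix. Both calls were also lost on leaving out 4 of the 5 arrays in turn (either Sham array, TBI 2 or TBI 3), with adjusted p up to 0.178. None of the 8 was called in TBI vs. Naïve, and Paqr8 was 1.52 higher in Sham than in Naïve rats (adjusted p = 0.0144), where it was above background on 1 of 3 Naïve arrays. Without Sham 1 or Sham 2 this last call was lost (adjusted p = 0.0648 and 0.0982), and with normexp the difference was 0.51 and not called.

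Of 14 estrogen receptor target genes, Gal, Myc and Ccnd1 rose in TBI vs. Naïve, by 1.87, 1.60 and 1.24 (limma adjusted p = 0.0181, 0.0226 and 0.0293), and C3 rose in TBI vs. Sham by 1.36 (adjusted p = 0.0401). Galanin (Gal) is a neuropeptide, Myc and Ccnd1 drive cell division, and C3 is a complement protein, and all of these are also known to respond to signals other than estrogen. The C3 level of Sham 1, -2.12, was the lowest of the 8 arrays, and that of Sham 2 was -0.55. Without Sham 1 the C3 difference was 0.58 (adjusted p = 0.337), and the call was also lost without TBI 2 or TBI 3 (0.128 and 0.112). Of 23 coregulators 2 were called in TBI vs. Naïve, both lower: Ppargc1b, a coactivator of the estrogen-related receptors, by 1.17 and Ncoa7 by 0.85 (adjusted p = 0.0230 and 0.0190). With the normexp background correction and its offset of 50 these were -0.20 and -0.11 (limma adjusted p = 0.853 and 0.914), beside a median of 0.31 over all probes. In Sham vs. Naïve the corepressor Nrip1 was called, lower by 0.81 (adjusted p = 0.0390), and at -0.41 it was not called with normexp. Leaving out single arrays ended the calls of Gal in 3 of 6 cases, Myc in 4, Ccnd1 in 5, Ppargc1b in 3, Ncoa7 in 2 and Nrip1 in 4 of 5, with adjusted p up to 0.197. Gal, Myc and Ccnd1 in TBI vs. Naïve and C3 and Tspo in TBI vs. Sham were not called with normexp either, at 1.68, 1.29, 1.04, 1.23 and 2.01 (adjusted p = 0.104, 0.208, 0.229, 0.295 and 0.105). None of the 10 target genes of the estrogen-related receptors was called in TBI vs. Sham, TBI vs. Naïve or Sham vs. Naïve by limma, with median differences of -0.17, -0.075 and 0.12.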

How the data were processed

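Whole hippocampus of 16 rats was measured on 1-colour Agilent rat 4x44K arrays. The deposited intensity values were background-subtracted and detrended by Agilent Feature Extraction 9.5.3.1, per the file headers. A second deposited table holds linear ratio values, which the authors related to the 75th percentile of probes above background, and served as an alternative only. Its centring is not known. RNA was amplified with one of 2 kits, and which rat had which is not given in the sources used here.

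Control spots were left out, leaving 42877 spots, and flagged outlier spots were dropped. Intensities of a probe's spots were averaged before log2 was taken, and log2 of the 75th percentile over detected probes was subtracted per array. The 22821 probes detected on every array of some group were fitted with limma 3.58.1 (R 4.3.3) over 6 groups with 10 residual degrees of freedom, Benjamini-Hochberg adjusted over all probes, and called at an adjusted p under 0.05. The number of arrays limits the precision. The fit was tested on simulated data. Alternatives covered background correction (normexp with an offset of 50), normalization, the filter, slide, replicate block, the methods' t-test and each array left out.

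All probes of the 10 genes were named, called or not, and from each other list at most 3 genes per comparison, those with the largest log2 difference among those called with no overlap of single values between both groups. A list gene with more than 1 tested probe was represented by the probe with the highest mean level. Gal and Nrip1 had 2 tested probes each, and the result of the other probe is not given. The members and lists were chosen with earlier results of these data known. The result of 1 gene of the other lists is not reported here.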

Additional observations from a re-analysis of the deposited data

How the results depend on the processing

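Of 155 counts of called members under an alternative, 127 were within 1.5 times the reported count. Many of the 155 belong to comparisons with a reported count of 0, where no ratio exists and a count of 0 was taken as unchanged. The 127 is thus no measure of how well the calls held. In TBI vs. Sham the count was 0 with normexp background correction, without the filter, with the replicate block (Esrra -0.63, adjusted p = 0.0779), with the 2 groups fitted alone, with the methods' t-test after Benjamini-Hochberg adjustment and with the slide as a fixed block, and it was 0 to 1 with single arrays left out. With the methods' t-test at unadjusted p and a fold limit it was 1 in TBI+E33 vs. TBI+PMI, TBI vs. Naïve and Sham vs. Naïve. In that order, 3408, 3169 and 3641 of all probes passed the same limits. Against TBI, E33 gave 2 with normexp, the 75th percentile of all probes, the filter on all 16 arrays or the adjusted t-test, 1 with quantile normalization or the authors' matrix, and 2 to 4 with arrays left out (2 without E33 2). JM6 gave 2 with normexp, the 75th percentile of all probes, the filter on all 16 arrays or the authors' matrix and 1 with quantile normalization, and PMI gave 0 with normexp and 1 with quantile normalization or the authors' matrix. Of all probes, 3205 of 22817 were called for E33 with normexp and 4653 with quantile normalization. For JM6 it was 4906 and 6203 of 22820, and for PMI 1441 and 4374 of 22820. With the filter on all 16 arrays it was 9297 of 14289 for E33. That filter left out Esr2, above background on 7 arrays, and Hsd17b4, on 15, so its member count is not out of 5. The 1 call with quantile normalization was Ncoa1 for each drug, and it was lower: -0.59 with E33, -0.64 with JM6 and -0.58 with PMI. On the authors' matrix the 1 call for E33 and for PMI was again Ncoa1, at -0.57 and -0.56. So none of the higher calls held in these cases. Ncoa1, lower, was also among the 2 calls of E33 and of JM6 with the 75th percentile of all probes (-0.81 and -0.82). The cause was not tested.

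Signs turned as follows. E33 vs. JM6: Esrra -0.035 with the slide as a fixed block or within the shared slide, and Hsd17b4 -0.027 with either, -0.021 with the replicate block and -0.0048 with the 75th percentile of all probes. E33 vs. PMI: Ncoa1 -0.0095 (quantile), -0.035 (75th percentile of all probes) and -0.015 (authors' matrix), and Ncor1 -0.085 (slide fixed). Esrra in TBI vs. Naïve was 0.051 (slide fixed), and Paqr8 in TBI vs. Sham 0.022 (normexp). E33 vs. TBI: Ncoa1 -0.0058 (normexp), -0.59 (quantile), -0.81 (75th percentile of all probes) and -0.57 (authors' matrix), Ncor1 -0.041 (75th percentile of all probes), and Hsd17b4 -0.072, -0.26 and -0.055 (quantile, 75th percentile of all probes, authors' matrix). PMI vs. TBI: Esrra -0.0017 and -0.033 (quantile, 75th percentile of all probes). With single arrays left out, E33 vs. JM6 ran from -0.45 to 0.24 for Esr2, -0.041 to 0.20 for Esrra, -0.043 to 0.16 for Ncoa1 and -0.032 to 0.11 for Hsd17b4, and Ncoa1 in E33 vs. TBI from -0.078 to 0.13.

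Over all probes, E33 vs. PMI gave 25 calls, 0 with normexp or quantile normalization and 494 with the slide as a random block, and E33 vs. JM6 gave 4, with 25 without the filter. TBI vs. Sham gave 2138, with 4 under normexp, 10 with the groups alone, 31 with the slide as a fixed block and 3827 as a random block. The estimated correlation within slides was negative (-0.088) in the random block fit. This makes the SE smaller for groups on separate slides, so the 494 and 3827 do not show that more probes differ. Same-numbered arrays of different groups did not deviate together (36 pairs, r from -0.19 to 0.18). Signal near background limited Esr1, Esr2, Pgr, Esrrb and Esrrg.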
